A study of Mus musculus with 2 samples.

Results

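The genes described here are 10 members of the BCL2 family, which decides whether a cell opens its mitochondria and dies by apoptosis. They were chosen by name: Bcl2, Bcl2l1, Bcl2l11, Mcl1, Bax, Bak1, Bbc3, Pmaip1, Bid and Bad. All 10 were listed in the deposited table of 16803 genes. Total RNA was sequenced from NE4C, a mouse line of neural stem cells kept in Eagle MEM on poly-L-lysine. There was 1 library of untreated cells (normal control) and 1 of cells exposed to homocysteine thiolactone (HTL). HTL is a reactive cyclic form of homocysteine that attaches to lysine residues of proteins. Its dose and duration for these libraries are not given in the sources used here. For protein modification assays, the study's methods describe a low-serum period before HTL, and whether these libraries had it is not stated. NE4C is a clonal line that was derived from embryos deficient in p53, so both conditions share that background. With 1 library per condition no difference had a replicate check, and each interval and test covered counting error between these 2 libraries only.

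In background terms, the family has 3 roles. Prosurvival members (Bcl2, Bcl2l1 and Mcl1) hold the others in check at the outer mitochondrial membrane. Effectors (Bax and Bak1) form the pores that release cytochrome c, and BH3-only members (Bcl2l11, Bbc3, Pmaip1, Bid and Bad) sense stress and either block the prosurvival proteins or engage the effectors directly. Neural progenitors are known to depend on prosurvival members during development. Much of the control in the family acts on proteins, through cleavage, phosphorylation and turnover, and is not seen in RNA.

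The libraries held 10350665 control reads and 9102076 HTL reads after rounding. The median log2 ratio of the 13442 genes tested was -0.14 when scaled to the column totals, and scaling by TMM raised log2 ratios by 0.13, so values near 0 depend on the scaling. Of 12 neural stem or progenitor markers, all were in the table, between 0.26 and 78.5 FPKM in the control and between 0.30 and 39.5 FPKM in the HTL library. Their summed level was 226.2 FPKM in the control and 166.2 FPKM in the HTL library. By the cutoffs given below, Sox2 (894 and 285 reads, log2 ratio -1.46), Vim (1487 and 648 reads, -1.01) and Sox1 (48 and 12 reads, -1.78) were called lower with HTL and Notch1 (124 and 231 reads, 1.08) higher. Nes was at 25.1 and 24.1 FPKM and Msi1 at 38.7 and 39.5 FPKM, while Fabp7 was at 2 reads in each library and Sox9 at 21 and 16 reads. The 6 neuron markers were also present, summing to 37.0 FPKM in the control and 52.1 FPKM in the HTL library, mostly from Tubb3 (16.3 and 24.8 FPKM) and Stmn2 (15.7 and 23.3 FPKM). Dcx, the lowest of the 6, was called lower (88 and 29 reads, log2 ratio -1.40). The part of these progenitor and neuron markers, and of those that follow, in the results below was not tested. Summed levels of the astrocyte markers (0.72 and 1.98 FPKM), the microglia or blood markers (0.75 and 0.47 FPKM) and the endothelial or fibroblast markers (2.14 and 2.26 FPKM) were low. Of the astrocyte markers, Aldh1l1 was called higher (21 and 56 reads, log2 ratio 1.58) and Gfap was at 2 and 0 reads. Aif1 of the microglia or blood markers was at 3 and 0 reads. The oligodendrocyte lineage markers summed to 3.97 and 4.44 FPKM, mostly from Mbp, with Sox10 at 0 and 2 reads. In bulk RNA, fewer cells of a kind and less RNA per cell cannot be told apart.

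The first question was how much of each family member these cells carried. Levels are compared between genes as FPKM, reads scaled to transcript length and library size. In the control library Bax was highest at 66.3 FPKM, with a Poisson 95% interval of its reads of 61.0 to 71.9, followed by Mcl1 at 48.4 (46.2 to 50.8) and Bak1 at 33.0 (30.6 to 35.5). These genes stood above 93.5%, 90.8% and 86.5% of all genes in the table. The BH3-only genes were lower, with Bid at 12.1 (10.6 to 13.7) and Bad at 10.3 (8.46 to 12.3) above Pmaip1 at 5.53 (4.69 to 6.48), Bcl2l11 at 4.93 (4.32 to 5.60) and Bbc3 at 4.11 (3.28 to 5.09). Bcl2l1 was at 6.52 FPKM (5.56 to 7.60). Bcl2, the founding member of the family, was the lowest of the 10 at 3.77 FPKM (3.28 to 4.31). Of the 9 neighbouring pairs in this order, 4 had intervals apart and 5 overlapped. The overlapping pairs were Bid and Bad, and each neighbouring pair from Bcl2l1 down to Bcl2.

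**Figure D1:**
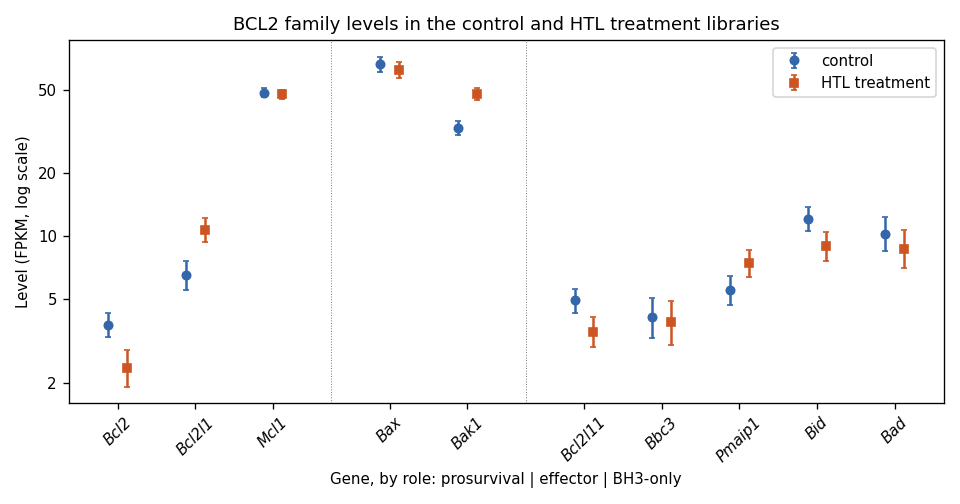
Level of each BCL2 family gene in FPKM (log axis) in the control library (circles) and the HTL library (squares), with the Poisson 95% interval of its reads. Bax, Mcl1 and Bak1 lie above 30 FPKM in both libraries, Bcl2 is lowest in both, and the 2 intervals are apart for Bcl2, Bcl2l1, Bak1 and Bcl2l11 and, narrowly, for Bid.

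In the HTL library Bax was again highest at 62.3 FPKM and Bcl2 again lowest at 2.35 FPKM. Bak1 at 47.9 FPKM stood beside Mcl1 at 47.6 FPKM, and their intervals (44.8 to 51.2 and 45.3 to 50.1) overlapped. Bcl2l1 had moved from rank 6 to rank 4 at 10.7 FPKM, next to Bid at 8.99 FPKM, Bad at 8.69 FPKM and Pmaip1 at 7.41 FPKM. The lowest genes beside Bcl2 were Bbc3 at 3.89 FPKM and Bcl2l11 at 3.50 FPKM. Intervals of neighbours overlapped for 5 of 9 pairs here too, including Bcl2l1 with Bid and Bbc3 with Bcl2l11.

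The next question was which members differed between the libraries. A gene was called when its adjusted p, from the two-sided exact binomial test with Benjamini-Hochberg adjustment over all genes tested, was at most 0.001 and its absolute log2 ratio at least 1, the cutoffs of the study's methods. None of the 10 members was called, against 10.8% of all genes tested (2.81% of genes tested higher with HTL and 7.98% lower). An absolute log2 ratio of at least 1 was reached by none either, against 17.0% of genes tested. By the adjusted p alone, 3 members passed, Bcl2l1 and Bak1 as higher and Bcl2 as lower. Over all genes tested that share was 38.6%, with 14.5% higher and 24.1% lower. The median log2 ratio of the 10 members was -0.082, beside -0.14 for all genes tested, and their range was -0.93 to 0.74.

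Bcl2 and Bcl2l1 stood at the ends of that range, both prosurvival genes, with log2 ratios of opposite sign. Bcl2 (gene ID 12043; NCBIM37 chromosome 1, 108434755 to 108610851, minus strand) was read 215 times in the control and 99 times in the HTL library, or 20.8 and 10.9 CPM, reads scaled to library size alone. The log2 ratio of Bcl2 was -0.93 (-1.29 to -0.58, the 95% limits by Clopper and Pearson's exact method) and its adjusted p in the exact binomial test 1.89e-07. This is a fold of 0.525, at percentile 14.1 of the log2 ratios of all genes tested. Bcl2l1 (gene ID 12048; chromosome 2, 152593052 to 152657464, minus strand), which encodes BCL-XL, had 164 and 241 reads, or 15.8 and 26.5 CPM. Its log2 ratio was 0.74 (0.45 to 1.04), a fold of 1.67, with an adjusted p in the exact binomial test of 1.27e-06, at percentile 91.5. Mcl1 (gene ID 17210; chromosome 3, 95462643 to 95467099, plus strand), a short-lived prosurvival protein, had 1766 and 1530 reads, for a log2 ratio of -0.021 (-0.12 to 0.078). Mcl1 held most of the prosurvival RNA in both libraries, 82.5% of the summed FPKM of these 3 genes in the control and 78.5% in the HTL library. The share of Bcl2l1 was 11.1% and 17.7%, and that of Bcl2 6.42% and 3.87%.

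Within a library the ratio of one gene to another does not depend on how libraries are scaled. There were 1.73 FPKM of Bcl2l1 for each FPKM of Bcl2 in the control and 4.56 in the HTL library. On reads, the log2 change of Bcl2l1 relative to Bcl2 was 1.67 (95% interval 1.21 to 2.14, exact conditional interval of the odds ratio), the largest of the 45 pairs of members. Bcl2 had the lowest log2 ratio of the members, so it had to be lower relative to each of the other 9. The interval excluded 0 in 9 of 9 pairs, but these pairs share the same Bcl2 reads and are not separate checks. Bcl2 was closest to Bcl2l11, at 0.47 (0.0011 to 0.94). In all, 28 of 45 intervals excluded 0, and these intervals are not adjusted for the number of pairs. They rest on reads. In FPKM, where the length used for Bcl2 differed between the libraries as described below, the log2 ratio of Bcl2 was -0.68 and that of Bcl2l11 -0.49, and no interval can be given.

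The promoters of both genes are shown because they carried the largest difference among the 45 pairs of the 10 members. Each run covers 250 bases before and 50 after an annotated start site, from RefSeq on GRCm38.p6, 5′ to 3′ on the gene's strand. For 9 of the member genes, 15 such windows were searched, and Pmaip1 was left out of the search. The 15 windows lay between 49.3% and 78.0% G or C with a median of 65.7%, against a median of 52.7% over all 32851 windows. Matches to 6 factor motifs were searched on both strands and are in capitals: the composite of ATF4 and C/EBP (TGATGNAA), FOXO (GTAAACA), the cAMP response element (TGACGTCA), the E-box (CACGTG), E2F (TTTCGCGC) and the p53 decamer. The motifs were picked after the values had been seen, and a match is a description of letters only.
Bcl2, chr1:106714241-106714540, minus strand: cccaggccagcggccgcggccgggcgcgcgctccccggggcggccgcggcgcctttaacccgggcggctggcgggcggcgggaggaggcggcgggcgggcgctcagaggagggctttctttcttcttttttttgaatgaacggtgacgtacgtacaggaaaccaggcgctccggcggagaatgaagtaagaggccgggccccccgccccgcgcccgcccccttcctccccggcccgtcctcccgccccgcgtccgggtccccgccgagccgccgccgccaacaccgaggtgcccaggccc
Bcl2l1, chr2:152830668-152830967, minus strand: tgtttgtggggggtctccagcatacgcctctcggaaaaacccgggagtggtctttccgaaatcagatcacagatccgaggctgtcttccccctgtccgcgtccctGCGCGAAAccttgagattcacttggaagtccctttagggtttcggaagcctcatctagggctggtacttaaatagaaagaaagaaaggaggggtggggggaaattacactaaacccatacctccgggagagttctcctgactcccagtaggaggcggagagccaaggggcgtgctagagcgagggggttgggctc
The Bcl2 window was 76.0% G or C with 44 CG pairs and held none of the 6 motifs. The Bcl2l1 window, 1 of 3 for that gene, was 55.7% G or C with 14 CG pairs. It held an E2F match on the opposite strand, 145 bases before the start site, a motif found in 0.323% of all windows. The other 2 windows of Bcl2l1 held none of the 6 motifs.

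**Figure D2:**
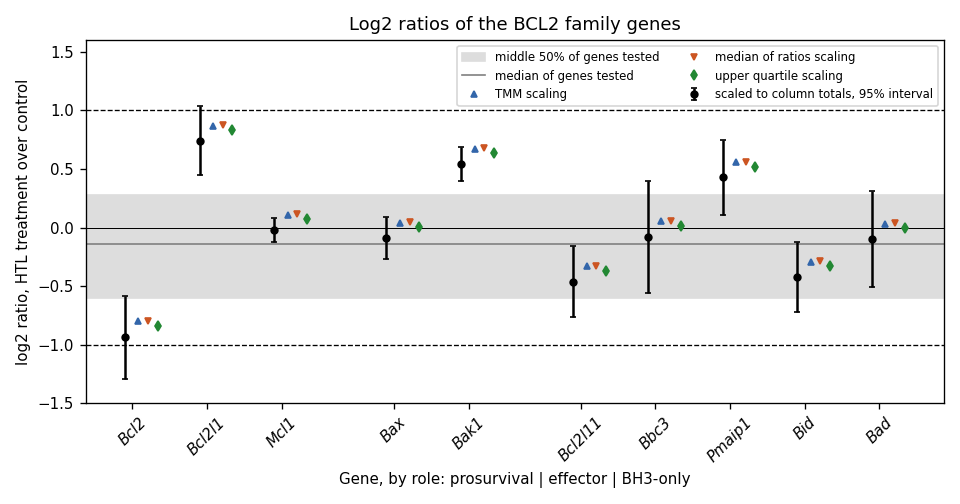
Log2 ratio of HTL treatment over control for each BCL2 family gene, scaled to the column totals (black, with the exact 95% interval of the reads) and by 3 other scalings (coloured). The grey band is the middle 50% of all genes tested, its line their median and the dashed lines the cutoffs of -1 and 1; no member passes them, and Mcl1, Bax, Bbc3 and Bad change sign between scalings.

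The effectors had unlike ratios. Bak1 (gene ID 12018; chromosome 17, 27156755 to 27165954, minus strand) was read 688 times in the control and 881 times in the HTL library, or 66.5 and 96.8 CPM. Its log2 ratio was 0.54 (0.40 to 0.69), a fold of 1.46, with an adjusted p in the exact binomial test of 8.51e-13. Bax (gene ID 12028; chromosome 7, 52717065 to 52722268, minus strand) had 581 and 481 reads, or 56.1 and 52.8 CPM, and a log2 ratio of -0.087 (-0.26 to 0.090), with an adjusted p of 0.435 in the same exact test. Bak1 protein sits in the mitochondrial membrane while Bax moves there from the cytosol on activation. On reads, the log2 change of Bak1 relative to Bax was 0.63 (0.40 to 0.86). In FPKM, Bak1 was 0.498 times Bax in the control and 0.770 times Bax in the HTL library. Exons of Bak1 overlap Ggnbp1 on the opposite strand, which had 0 and 2 reads.

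Among the 5 BH3-only genes, none passed the adjusted p of 0.001, which 38.6% of all genes tested passed. Pmaip1 (gene ID 58801), which encodes NOXA and binds MCL1, had the highest log2 ratio of these genes. It had 152 and 180 reads, or 14.7 and 19.8 CPM, a log2 ratio of 0.43 (0.11 to 0.75) and an adjusted p of 0.0143 in the exact binomial test. Pmaip1 per Mcl1 was 0.114 in the control and 0.156 in the HTL library in FPKM, and on reads the log2 change of Pmaip1 relative to Mcl1 was 0.45 (0.12 to 0.79). Bcl2l11 (gene ID 12125; chromosome 2, 127951774 to 127988283, plus strand), which encodes BIM, had 235 and 150 reads, or 22.7 and 16.5 CPM. Its log2 ratio was -0.46 (-0.77 to -0.16), with an adjusted p of 0.00489 in the exact test. Bid (gene ID 12122; chromosome 6, 120841948 to 120866871, minus strand), whose protein is cut by caspase-8 to link death receptors to mitochondria, was like it. It had 238 and 156 reads, or 23.0 and 17.1 CPM, and a log2 ratio of -0.42 (-0.72 to -0.13), with an adjusted p of 0.00983 in the exact test. The interval of Bid relative to Bcl2l11 included 0 (0.038, -0.39 to 0.47).

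Bbc3 and Bad lay near 0. Bbc3 (gene ID 170770; chromosome 7, 16894965 to 16903554, plus strand), which encodes PUMA, had 84 and 70 reads, or 8.12 and 7.69 CPM, and a log2 ratio of -0.077. Its interval of -0.56 to 0.40 is the widest of the members, so a difference within it was not detectable at this depth. Bad (gene ID 12015; chromosome 19, 7016351 to 7026388, plus strand), whose protein is held inactive by survival kinases, had 113 and 93 reads, or 10.9 and 10.2 CPM. Its log2 ratio was -0.095 (-0.51 to 0.31). Bid overlaps exons of Bcl2l13 (1412 and 1540 reads) and Bad overlaps exons of Gpr137 (75 and 56 reads), each on the opposite strand, and Bcl2 overlaps D630008O14Rik, which was not among the genes listed. The sources used here do not say if strand was used in counting, and reads of these overlaps cannot be assigned with certainty.

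By role, the summed FPKM of prosurvival genes was 58.7 in the control and 60.7 in the HTL library. Effectors summed to 99.2 and 110 FPKM, and BH3-only genes to 36.9 and 32.5 FPKM. The effector and BH3-only genes together stood at 2.32 times the prosurvival genes in the control and 2.35 times in the HTL library, a log2 change of 0.020. Without the gene of highest FPKM in each role (Mcl1, Bax and Bid) that log2 change was -0.040. The 10 members summed to 195 and 203 FPKM, and the 10 other family and BH3-like genes in the table to 184 and 82.2 FPKM. Of the latter sum, Bnip3 alone gave 90.4 and 8.52 FPKM, and Bnip3l 44.4 and 26.8 FPKM. Of these other genes, 8 had log2 ratios below 0 and 2 above 0. None of these sums has a replicate error.

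FPKM and reads gave different ratios for Bcl2 and Bad, because the transcript length behind the FPKM differed between the libraries. RSEM weights the length of a gene by the isoforms to which it assigns reads, so reads divided by FPKM and by the library total give the length used in each library. For Bcl2 this length was 5521 bases in the control and 4626 bases in the HTL library, a log2 ratio of -0.26. Its log2 ratio was therefore -0.68 in FPKM against -0.93 on reads. For Bad the lengths were 1064 and 1176 bases, a log2 ratio of 0.14, and its log2 ratio was -0.24 in FPKM against -0.095 on reads. The other 8 members differed in length by at most 0.027 on the log2 scale. A difference over 0.1 was seen in 1.48% of the 9456 genes with at least 50 reads in each library, and one as large as that of Bcl2 in 0.338%. The table does not list isoforms, so whether any changed is not known, and no interval can be given for these lengths.

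**Figure D3:**
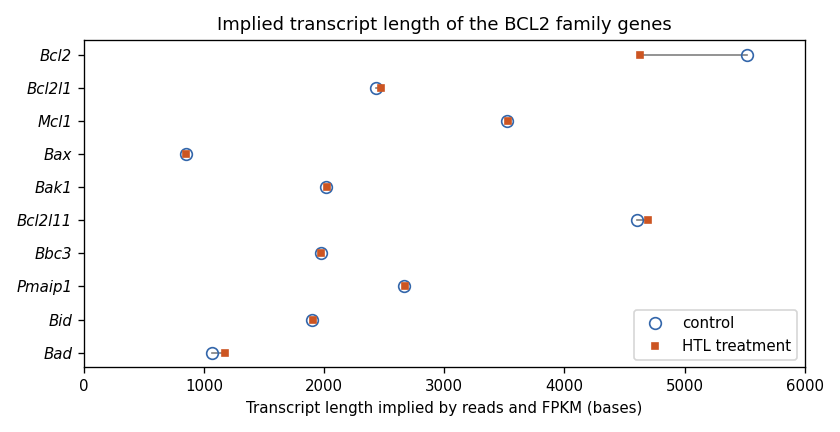
Transcript length in bases implied by reads and FPKM for each BCL2 family gene in the control library (open circles) and the HTL library (squares). Bcl2 goes from 5521 to 4626 bases and Bad from 1064 to 1176 bases, while the markers of the other 8 genes nearly coincide.

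Of 16 other BCL2 family and BH3-like genes, 10 were in the table and tested, and 3 were called, 1 higher and 2 lower, where 2.81% of all genes tested were called higher and 7.98% lower. Of the other 7, 6 had absolute log2 ratios below that of Bcl2, and Bcl2l15 rested on 11 and 4 reads. Hrk, which encodes the BH3-only protein Harakiri known from neurons deprived of growth factors, rose. Its 59 control reads stood against 269 HTL reads, 1.06 and 5.43 FPKM, with a log2 ratio of 2.36 (1.96 to 2.81). Bik, another BH3-only gene, fell with few reads (48 and 14), a log2 ratio of -1.56 (-2.57 to -0.71), and was not called with TMM scaling. Bnip3, a BH3-like gene known for mitophagy and hypoxia, fell from 1638 to 136 reads, a log2 ratio of -3.40 (-3.67 to -3.15). Its relative Bnip3l had 1498 and 797 reads, for a log2 ratio of -0.72 (-0.85 to -0.60), short of the cutoff. The prosurvival gene Bcl2l2 (127 and 72 reads) had a log2 ratio of -0.63 (-1.07 to -0.20) and the effector-like gene Bok (196 and 128 reads) one of -0.43 (-0.76 to -0.10). In FPKM, Hrk thus lay below all 10 members in the control and between Bbc3 and Pmaip1 in the HTL library. The median log2 ratio of the 10 genes was -0.75, against -0.14 for all genes tested.

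Stretches around motif matches are shown for BH3-only genes, because they carry matches to motifs of factors whose RNA is given in the next paragraph, of which Atf4 was called and the FOXO genes were not. Each has up to 30 bases on both sides of the match, which is in capitals, from RefSeq on GRCm38.p6 and 5′ to 3′ on the gene's plus strand.
Hrk, chr5:118169620-118169687: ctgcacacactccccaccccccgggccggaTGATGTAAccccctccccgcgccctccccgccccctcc
Bcl2l11, chr2:128125788-128125847: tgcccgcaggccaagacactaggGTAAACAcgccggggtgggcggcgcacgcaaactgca
Bbc3, chr7:16310064-16310130: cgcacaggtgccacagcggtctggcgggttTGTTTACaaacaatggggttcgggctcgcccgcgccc
The window of Hrk held the composite of ATF4 and C/EBP 114 bases before its start site, a motif of 3.97% of all windows. Hrk was the only gene of the wider family searched and was picked with its values known. Of the 15 member windows searched, 0 held this composite, and a link of Atf4 to Hrk was not tested. Bcl2l11 held a FOXO match 227 bases before a start site and Bbc3 one on the opposite strand 167 bases before a start site, a motif of 3.65% of all windows. Bbc3 and Bax held E-boxes (7.15% of all windows), and Bax a p53 decamer 201 bases before its start site (8.36%). The cAMP response element (1.79%) was in none of the 15 member windows searched, which leave out Pmaip1. None of these matches overlapped another.

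Of 11 transcription factors known to act on family genes, all were tested and 3 were called, 2 higher and 1 lower, beside 2.81% and 7.98% of all genes tested. Their median log2 ratio was 0.63. Atf4, which drives the integrated stress response, had 3047 and 7124 reads, for a log2 ratio of 1.41 (1.35 to 1.47). Ddit3, which encodes CHOP, a factor known to lower Bcl2 and raise Bcl2l11 under endoplasmic reticulum stress, had 98 and 385 reads, for a log2 ratio of 2.15 (1.84 to 2.49). The log2 ratios of Bcl2 (-0.93) and Bcl2l11 (-0.46) were both negative, and a part of Ddit3 in them was not tested. E2f1 had 293 and 108 reads and fell by 1.25 on the log2 scale (-1.59 to -0.93). Foxo3, which activates Bcl2l11 and Bbc3, had 323 and 525 reads, for a log2 ratio of 0.89 (0.68 to 1.09), short of the cutoff except with TMM and median of ratios scaling. Bcl2l11 was at -0.46 and Bbc3 at -0.077, and a part of Foxo3 in these values was not tested. Foxo1 had 440 and 322 reads and a value of -0.26 (-0.48 to -0.054). Trp73 had 121 and 53 reads and a value of -0.999, just short of the cutoff, and Creb1 was at -0.37 (-0.53 to -0.20). Stat3 and Rela, both known to act on Bcl2l1, had log2 ratios of 0.76 (0.50 to 1.03) and 0.52 (0.29 to 0.74). Trp53, the gene of p53, was at 3 control and 7 HTL reads, 0.16 and 0.43 FPKM, with a log2 ratio of 1.27 (-0.72 to 3.99) that rests on these few reads. Of the p53 targets Bax, Bbc3 and Pmaip1, each was present at 70 or more reads in both libraries.

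Downstream of the mitochondria, of 5 inhibitor of apoptosis genes, 2 were called, both lower, beside 7.98% of all genes tested called lower. Their median log2 ratio was -0.83. Xiap, which blocks caspases, had 394 and 161 reads and fell by 1.10 on the log2 scale (-1.38 to -0.84), a call that TMM scaling ended. Birc2, which encodes cIAP1, had 410 and 161 reads and fell by 1.16 (-1.44 to -0.90). Birc6 (3409 and 1690 reads) had a log2 ratio of -0.83 (-0.91 to -0.74), and Birc5 (1409 and 1263 reads), a mitotic gene as well, one of 0.028 (-0.083 to 0.14).

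Of 14 tested apoptosome, caspase and mitochondrial genes none was called, where 10.8% of all genes tested were. By the adjusted p alone 3 were lower, Htra2 at -0.81 (-1.10 to -0.53), Endog at -0.75 (-1.17 to -0.35) and Aifm1 at -0.65 (-0.90 to -0.41). Casp9 had a log2 ratio of 0.53 (0.18 to 0.89) and Apaf1 one of 0.26 (-0.069 to 0.59). Of 7 tested death receptor and adaptor genes none was called either, against the same 10.8%, and Fas was below the filter at 4 and 5 reads. Tnfrsf1a, the receptor of tumour necrosis factor, had the highest log2 ratio of these at 0.73 (0.45 to 1.02).

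Of 14 genes whose proteins hold, modify or degrade family members, 1 was called, as lower, beside 7.98% of all genes tested. Akt1, a kinase that phosphorylates BAD and keeps it from the mitochondria, had 353 and 123 reads and fell by 1.33 on the log2 scale (-1.64 to -1.04). The ubiquitin ligase Huwe1 and the deubiquitinase Usp9x, which act on MCL1 in opposite ways, had log2 ratios of -0.42 (-0.47 to -0.38) and -0.59 (-0.66 to -0.52). Dynll1 and Dynll2, light chains that tether BIM and BMF, had ratios of 0.23 (0.15 to 0.31) and 0.45 (0.33 to 0.57). The median over these 14 genes was -0.20.

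**Figure D4:**
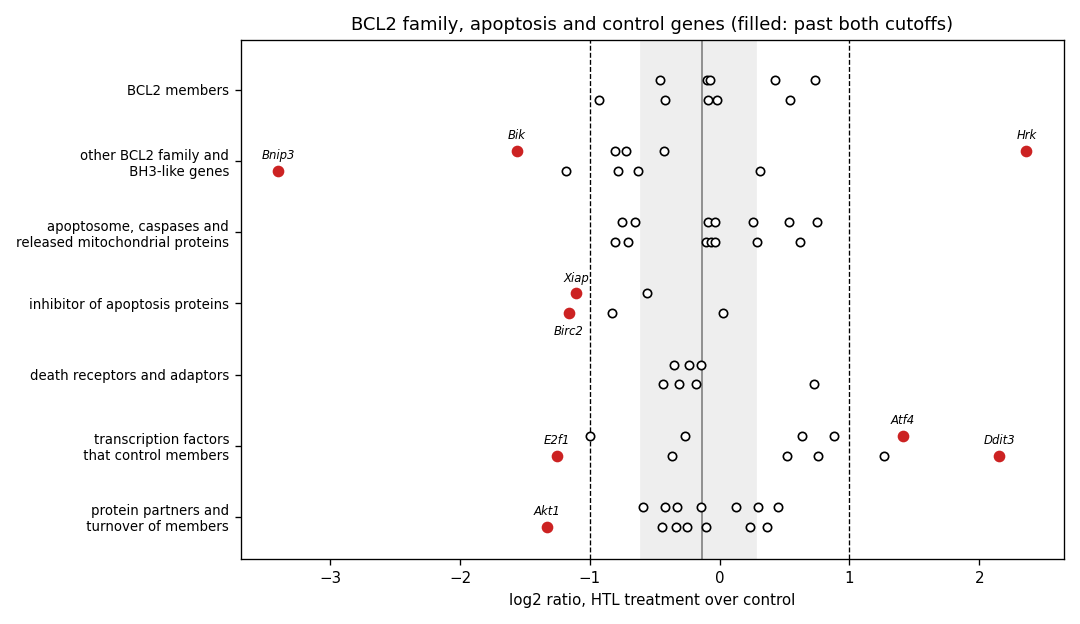
Log2 ratio of HTL treatment over control for each tested gene of 7 lists, with called genes filled and named, the cutoffs dashed and the middle 50% of all genes tested in grey with their median. None of the 10 BCL2 family members is filled, while Hrk, Bik and Bnip3 of the wider family, Xiap and Birc2 of the inhibitors, and Ddit3, Atf4, E2f1 and Akt1 of the controlling genes are.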

How the data were processed

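RNA of 1 control and 1 HTL treatment library was analysed, grouped by sample title. The labels name an Illumina TruSeq kit and BGISEQ sequencing, and the submitters' processing notes name mm9. The authors estimated counts per gene with RSEM after mapping. The mapper, versions, annotation and strand setting are not given in the sources used here. The deposited estimated counts are not normalized, and the deposited FPKM are scaled by the authors to length and library size. The deposited log2 ratios, p-values and FDR (a comparison by the authors) were not used. Estimated counts were rounded (4 members had fractional values), and a gene was tested where its 2 counts summed to 10 or more (exact binomial test against column totals, Benjamini-Hochberg). For log2 ratios 0.5 read was added. Python 3.11.15, scipy 1.17.1 and edgeR 4.0.16 were used. The test was tried on simulated data first. No molecular identifiers were counted, so intervals cover counting error only. Members, lists and tests were chosen with earlier results of these data known. Named were all members, up to 3 largest called rises and falls of each other list, Trp53, Ddit3 and Atf4; further genes with values were chosen after their values were seen. Coordinates are GENCODE vM1 on NCBIM37 (mm9), matched by symbol. Alternatives were other scalings, filters, added reads, FPKM + 1, other cutoffs and an edgeR exact test at a coefficient of variation that was assumed. Some genes of the apoptosis lists are not reported here.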

Additional observations from a re-analysis of the deposited data

How the results depend on the processing

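No paired analysis was possible because there was a single pair of libraries, which also left none to omit. The count of BCL2 members called was 0 under each alternative run except the adjusted p alone, which gave 3 (Bcl2, Bcl2l1 and Bak1, with log2 ratios of -0.93, 0.74 and 0.54). No member reached an absolute log2 ratio of 1 by column totals. A log2 cutoff of 2, an adjusted p of at most 0.05, the read filters and the edgeR tests could therefore only give 0. Among the settings that gave 0, only the other scalings, added reads and FPKM + 1 could have changed it. Over all alternatives Bcl2 lay between -0.93 and -0.51, Bcl2l1 between 0.64 and 0.88 and Bak1 between 0.53 and 0.68. With TMM, Mcl1, Bax, Bbc3 and Bad were at 0.11, 0.043, 0.052 and 0.034, and so above 0, while the other 6 members kept their sign under each alternative. The error between cultures cannot be measured here. When a coefficient of variation of 0.1 was assumed in its place, the exact test of edgeR gave a Benjamini-Hochberg adjusted p of 0.00414 for Bcl2, 0.0177 for Bcl2l1 and 0.0496 for Bak1, and with 0.2 it gave 0.269, 0.416 and 0.576.

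The 3 calls of the wider family became 5 with the adjusted p alone and 0 at a coefficient of variation of 0.4. Bik was lost, leaving 2, under TMM, the median of ratios, a mean of at least 50 reads, a log2 cutoff of 2 and coefficients of 0.1 and 0.2. The 2 calls of the apoptosis pathway genes became 1 (Birc2) with TMM, the median of ratios and FPKM + 1, 8 with the adjusted p alone, and 0 at a log2 cutoff of 2 and with coefficients of 0.2 and 0.4. The 4 calls of the controlling genes became 20 with the adjusted p alone, 1 (Ddit3) at a log2 cutoff of 2 and with a coefficient of 0.2, and 0 with 0.4, and 5 (with Foxo3) under TMM and the median of ratios. Over all genes tested the share called moved as well, from 10.8% to 38.6% with the adjusted p alone, 2.14% at a log2 cutoff of 2, 0.893% with a coefficient of 0.2, 0.0446% (6 genes) with 0.4 and 6.07% with FPKM + 1. Of the genes called, 378 were higher and 1072 lower by column totals, against 552 and 800 with TMM. The change in the ratio of effector and BH3-only to prosurvival genes was 0.020 on the log2 scale, 0.049 from reads per deposited length, and -0.040 without the highest gene of each role. The cause of these shifts was not tested, except that stricter cutoffs admit fewer genes.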

Other observations

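The gene length given in the deposited table followed the HTL library. Of the 140 genes whose implied length differed by over 0.1 on the log2 scale, 100% had a deposited length nearer to that of the HTL library than to that of the control library. Among the apoptosis genes, the largest such difference in a tested gene with at least 50 reads in each library was in Cflar, which encodes the caspase-8 inhibitor FLIP in long and short forms. Its implied length was 4814 bases in the control and 3671 bases in the HTL library, a log2 ratio of -0.39 that 0.159% of the 9456 genes reached. With 247 and 184 reads its log2 ratio was -0.24 (-0.52 to 0.042) on reads and 0.16 in FPKM. Cflar, like Bcl2, thus had reads and FPKM that differed by the length the authors' estimate assigned to it.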
